A study of Mus musculus with 8 samples.

Results

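Solute carriers are membrane proteins that move nutrients, ions, metals and metabolites across the plasma membrane and the membranes of organelles. Here they are followed in macrophages of the peritoneum as the genes whose names carry the solute carrier prefixes Slc (subfamily a) or Slco and whose signal, averaged over the 4 groups, reached 26.7 units, which is 1 ppm of a column's total. By this rule 180 of the 11400 genes with that signal were taken, out of 190 listed under such names. Of the 180, 5 carry a carrier's name but are no carriers (Slc9a3r1, Slc9a3r2, Slc4a1ap, Slc7a6os and Slc2a4rg-ps) and were set aside. The other 175 rows stand for 174 names, since Slc38a9 is on more than 1 row. The 10 genes below the limit (Slc16a14, Slc25a47, Slc36a2, Slc39a12, Slc43a1, Slc4a4, Slc4a8, Slc7a3, Slc7a4 and Slc9a5) had mean signals from 13.5 to 25.9 units and are not followed further. At the limit, Slc39a4 was just inside with a mean signal of 29.25 units, and the bicarbonate transporter gene Slc4a4 just outside with 25.9.

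The cells were thioglycolate-elicited peritoneal macrophages of C57BL/6 mice, left to adhere to plastic for 24 h. Thioglycolate is an irritant that recruits macrophages to the cavity. The 4 groups were wild type with mock treatment, wild type with IL-10 (100 ng/ml, 4 h), Ptpn1-/- with mock treatment and Ptpn1-/- with IL-10 (100 ng/ml, 4 h), and each had 2 samples. Ptpn1 encodes PTP1B, a tyrosine phosphatase that acts on receptors and JAK kinases. Age, sex, the deleted part of Ptpn1 and whether samples came from separate mice were not stated in the labels used here. The table analysed gives 1 authors' value per gene and group, so the spread between samples is not known and no test was made. Differences are log2 ratios of signal with 26.7 units added to both values, and 1.5-fold (0.585 on the log2 scale) and 2-fold serve as limits of size. Where a pair of values is given for a genotype, mock comes first and IL-10 second, and where a pair is given for a treatment, wild type comes first. An IL-10 comparison and a genotype comparison share a column, so they are not independent of each other.

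Each carrier recognises a small set of substrates. In macrophages they are known for the import of glucose and amino acids, the export of lactate, the removal of iron, zinc and manganese from phagosomes, the salvage of nucleosides from digested cells and the exit of digestion products from lysosomes. IL-10 restrains inflammatory gene expression in macrophages and signals through JAK1, TYK2 and STAT3. Amino acid exchangers work as pairs of a light chain with the heavy chain CD98, encoded by Slc3a2, and monocarboxylate carriers need the chaperone basigin or embigin.

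Macrophage markers were listed in all groups: 7 of 8 symbols were found, the missing Adgre1 being the newer name of Emr1, and they summed to 644242 and 550993 units in wild-type cells without and with IL-10 and to 458148 and 456868 in the knockout. Most of that sum is Cd68 and Lyz2, which differed between genotypes in opposite directions. For knockout against wild type under mock, Cd68 had a log2 ratio of 0.27, Lyz2 -1.41, Itgam -0.38, Mertk -0.21, Csf1r -0.14, Emr1 0.06 and Cd14 0.16. Cd68 stood at exactly 226524 units in both wild-type columns and 272612 in both knockout columns. Lyz2 stood at exactly 136852 in both knockout columns. Such repeated values can come from a normalization that assigns values by rank. The ratios of these 2 genes and the marker sums may then be steps in rank and not measured amounts. Ptpn1 itself had 4960.5 and 3836.5 units in wild-type and knockout cells under mock, and 6736 and 5391.5 with IL-10, so it was not absent from the knockout columns and checks the genotype labels only weakly. Markers of mesothelial cells and fibroblasts, all 8 listed, summed to 30857.5 and 29462 units in wild-type cells (mock, then IL-10) and to 18622.5 and 18380.5 in the knockout. Of the monocyte markers, Ccr2 had 370.5 and 639 units in wild-type cells and 581.5 and 995 in the knockout, and Ly6c2 had 15 and 13.5 and then 100 and 105.5. Both were higher in the knockout, and Ccr2 was also higher with IL-10. Cd3e and Ncr1, defining markers of T and NK cells, were not listed. Of the T cell list, 2 of 5 were: Lck had 11.5 and 105 units in wild-type cells and 10 and 128 in the knockout, and Cd5 lay between 11 and 31 units. In bulk RNA, fewer cells of a type and less RNA per cell cannot be told apart. All columns of the table have the same total and the same highest value, so a shift common to most genes would not show.

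The carriers that differed most with IL-10 are introduced by the 250 bases before their RefSeq start sites. The lines give Slc28a2, Slc16a1 and Slc12a7, at least 1.5-fold higher with IL-10 in both genotypes, and Slc16a10, the 1 carrier at least 1.5-fold lower in the knockout. Slc39a14, also higher, had no entry in the promoter table used. Capitals mark TTCNNNGAA, the palindrome that STAT factors bind, and the core of the interferon response element, GAAA and GAAA with any 2 bases between them, searched on both strands over the 250 bases shown and the next 50.
Slc28a2 (GRCm38.p6, chr2:122426185-122426434, plus strand): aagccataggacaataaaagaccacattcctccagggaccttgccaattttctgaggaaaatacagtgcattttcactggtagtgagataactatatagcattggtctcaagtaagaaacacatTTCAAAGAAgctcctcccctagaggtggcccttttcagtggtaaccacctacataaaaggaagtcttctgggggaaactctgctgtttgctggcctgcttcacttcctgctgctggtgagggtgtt
Slc16a1 (GRCm38.p6, chr3:104638414-104638663, plus strand): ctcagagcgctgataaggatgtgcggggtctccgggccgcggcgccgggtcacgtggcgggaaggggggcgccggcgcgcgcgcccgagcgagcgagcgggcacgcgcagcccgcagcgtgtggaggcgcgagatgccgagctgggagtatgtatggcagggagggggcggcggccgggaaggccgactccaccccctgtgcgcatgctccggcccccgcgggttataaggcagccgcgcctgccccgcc
Slc12a7 (GRCm38.p6, chr13:73763410-73763659, plus strand): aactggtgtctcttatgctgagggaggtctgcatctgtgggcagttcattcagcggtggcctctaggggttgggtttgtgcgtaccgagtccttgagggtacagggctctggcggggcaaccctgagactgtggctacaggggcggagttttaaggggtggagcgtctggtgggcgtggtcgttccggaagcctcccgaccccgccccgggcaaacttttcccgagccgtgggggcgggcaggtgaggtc
Slc16a10 (GRCm38.p6, chr10:40142255-40142504, minus strand): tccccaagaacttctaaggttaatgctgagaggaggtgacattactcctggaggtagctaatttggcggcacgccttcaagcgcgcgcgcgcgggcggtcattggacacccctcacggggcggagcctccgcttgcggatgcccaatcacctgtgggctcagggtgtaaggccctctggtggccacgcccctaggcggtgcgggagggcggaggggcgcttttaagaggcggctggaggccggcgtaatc
Of these windows only that of Slc28a2 held a match, and it was to TTCNNNGAA. This motif was found in 8.30% of all 32851 windows and in 6.08% of the 181 windows of the 129 carriers matched by symbol. The interferon element core was found in 3.44% and 1.66% of these windows. A match is a description of the letters and was not tested as a binding site.

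Most of the 175 carriers differed little between IL-10 and mock, and a handful stood out. In wild type 87.4% of them had an IL-10 log2 ratio within 0.25 of 0, against 84.6% of all 11400 genes, and in the knockout 76.0% against 84.0%. Their median log2 ratios were 0.01 in wild type and -0.01 in Ptpn1-/- cells, beside 0.00 and -0.01 over all genes. With IL-10, 4 carriers were at least 1.5-fold higher in wild type (2.29%, where 1.54% of all genes were) and 5 in the knockout (2.86%, against 2.32%). At 2-fold these were 1 carrier in wild type (0.465% of all genes) and 3 in the knockout (0.877%). No carrier was 1.5-fold lower in wild type (0.412% of all genes) and 1 was in the knockout (0.807%). At 2-fold no carrier was lower in either genotype, where 0.0175% of all genes were in each. The carriers' shares at 1.5-fold thus lay near those of all genes. The monocyte marker Ccr2 had IL-10 log2 ratios of 0.74 and 0.75 and Ly6c2 had -0.05 and 0.06, and the part of those cells in the carriers' values was not tested.

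**Figure D1:**
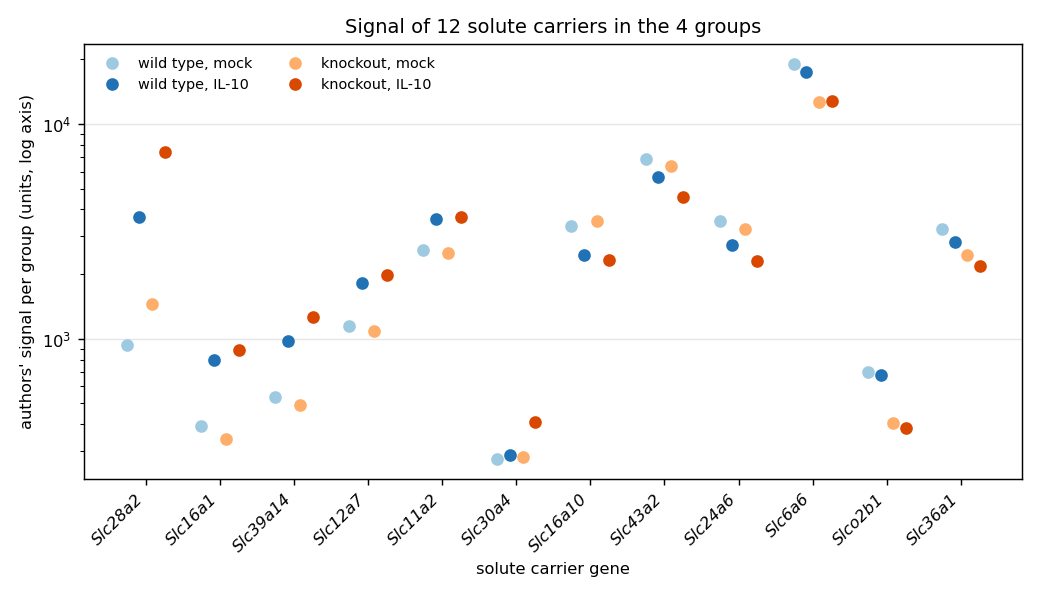
Authors' signal per group (units, log axis) of 12 solute carriers in wild type and knockout macrophages with mock or IL-10; each point is 1 group value, without an error. Slc28a2 spans 933 to 7402 units, while Slco2b1 and Slc6a6 separate by genotype rather than by treatment.

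Slc28a2 had the largest IL-10 difference of all carriers. It encodes CNT2, a sodium-coupled importer of purine nucleosides and uridine (ENSMUSG00000027219; mm9 chromosome 2, 122252213 to 122286873, plus strand). Its signal was 933 units in wild-type cells under mock and 3704 with IL-10, and 1446.5 and 7402 in the knockout. The log2 ratios were 1.96 and 2.33, which placed it 10th highest and 9th highest among the 11400 genes. It was also higher in the knockout than in wild type under both treatments, with log2 ratios of 0.62 and 0.99, and the difference between the genotypes' responses was 0.38. In GENCODE M21, 47.7% of the 36-base stretches of its longest transcript also occur in Gm14085, a neighbouring gene that is not listed in the table analysed, so how the signal divides between these copies is not known.

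The other listed nucleoside carriers did not share this direction. Slc29a1, the plasma membrane equilibrative transporter, stood at 2169 and 1894.5 units in wild-type cells and 2029 and 1674 in the knockout. Slc29a3, which releases nucleosides from lysosomes, stood at 11891 and 9312.5 units in wild-type cells and 12388 and 9400 in the knockout, log2 ratios of -0.35 and -0.40. Slc29a2 was low, between 55 and 87 units. The ascorbate importer Slc23a2 had IL-10 log2 ratios of 0.12 and 0.19, so Slc28a2 was alone in its class of 5 past 1.5-fold.

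In the carboxylate class, Slc16a1 and Slc16a10 lay on opposite sides of 0. Classes were set by family number, so both are counted here, and Slc16a10 is not in the amino acid class. Slc16a1 (mm9 chromosome 3, 104442591 to 104462385) encodes MCT1, which carries lactate, pyruvate and ketone bodies. It had 392.5 and 795 units in wild-type cells and 342 and 887.5 in the knockout, log2 ratios of 0.97 and 1.31. Slc16a10, a carrier of aromatic amino acids, had 3344 and 2463 units in wild-type cells and 3530 and 2319.5 in the knockout, log2 ratios of -0.44 and -0.60. Slc16a3, which encodes the lactate exporter MCT4, stood at 985 and 1005 units in wild-type cells and 1189 and 964.5 in the knockout. Its IL-10 ratio was 0.03 in wild type and -0.29 in Ptpn1-/- cells, and that difference of -0.32 was among the lowest 4 of carriers with at least 134 units (5 ppm) in their highest group. Slc16a9 was low, between 60.5 and 85 units. Of the 8 carriers of this class, Slc16a1 was past 1.5-fold upward in each genotype and Slc16a10 downward in the knockout, and the class medians were 0.09 and -0.002. The chaperones basigin (Bsg, 5121 and 5021 units in wild-type cells) and embigin (Emb, 5160.5 and 6125) had wild-type log2 ratios of -0.03 and 0.25.

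Metal carriers held another of the leading genes. Slc39a14 (mm9 chromosome 14, 70703276 to 70751232) encodes ZIP14, an importer of zinc, manganese and iron that is not bound to transferrin. Its signal was 538 and 979.5 units in wild-type cells and 492.5 and 1265 in the knockout, log2 ratios of 0.83 and 1.31. The difference between the genotypes' responses, 0.48, was the largest upward among carriers and ranked 126th of the 11400 genes, but it was below 1.5-fold. Slc11a2, the endosomal and plasma membrane iron importer DMT1, followed with 2586.5 and 3590 units in wild-type cells and 2497 and 3670.5 in the knockout, log2 ratios of 0.47 and 0.55. In wild type 20 of 26 metal carriers lay above 0 with a median of 0.10, and in the knockout 15 of 26 with a median of 0.03, where 49.6% and 45.2% of all genes lay above 0.

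Several of these ratios were modest but alike in both genotypes. The copper carriers Slc31a1 and Slc31a2 had log2 ratios of 0.20 and 0.39 in wild type and 0.21 and 0.37 in Ptpn1-/- cells. The zinc importer Slc39a1 had 0.30 and 0.33, and the magnesium carriers Slc41a1 and Slc41a2 had 0.34 and 0.22 in wild type and 0.39 and 0.34 in Ptpn1-/- cells. Slc30a1, which exports zinc across the plasma membrane, stood lower with IL-10, at 3263 and 2769.5 units in wild-type cells and 3632.5 and 3022.5 in the knockout. Slc30a4, a zinc carrier of endosomes, differed between genotypes: 276 and 287 units in wild-type cells, 281.5 and 409.5 in the knockout, so that its IL-10 log2 ratio was 0.05 in one and 0.50 in the other. The zinc-binding metallothioneins, on the list of partners and regulators, were also listed higher with IL-10, Mt2 at 403 and 1015.5 units in wild-type cells and 454 and 1302 in the knockout, Mt1 at 3360.5 and 5280 and at 3747 and 6022.5.

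Other carriers of iron and heme had smaller IL-10 ratios than Slc39a14 and Slc11a2. Slc11a1 stood at 20668.5 and 22821 units in wild-type cells and 21797 and 23804 in the knockout. It was the 1 carrier among 146 genes with a mean above 20000 units, and its IL-10 log2 ratios were 0.14 and 0.13. Slc11a1 encodes NRAMP1, which in its functional form pumps divalent metals out of phagosomes. These values are of RNA only. Which Slc11a1 allele these mice carry, and whether its protein transports metals, was not tested. The iron exporter ferroportin, Slc40a1, was low, at 128.5 and 110 units in wild-type cells and 157.5 and 163.5 in the knockout, a genotype log2 ratio of 0.48 with IL-10. The heme carrier Slc48a1 (8257 and 8905.5 units in wild-type cells) and the mitochondrial iron importer Slc25a28 (734 and 749.5) had IL-10 log2 ratios of 0.11 and 0.03 there, and of -0.06 and 0.12 in the knockout. All 10 written members of the iron and heme list were kept, 8 of 10 lay above 0 in each genotype, and Slc39a14 alone was past 1.5-fold with IL-10.

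**Figure D2:**
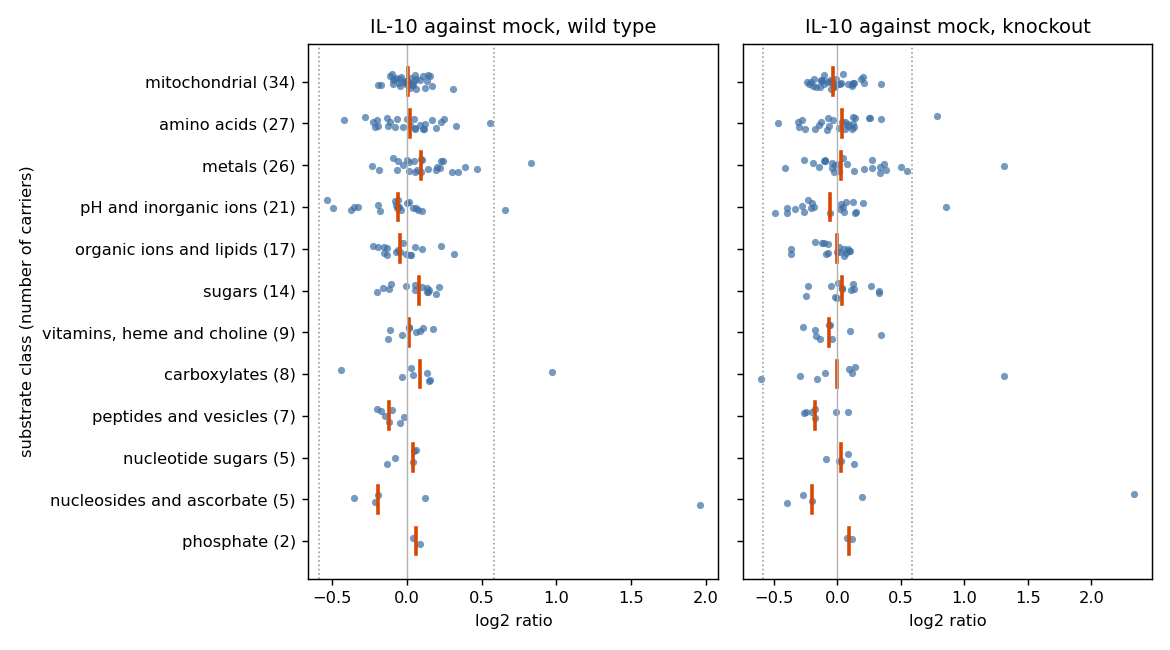
Log2 ratio of IL-10 to mock (x axis) for each of 175 carriers by substrate class in wild type (left) and knockout (right); orange bars are class medians, dotted lines are 1.5-fold limits. The class medians range from -0.20 (nucleosides and ascorbate, knockout) to 0.10 (metals, wild type), and single genes such as Slc28a2, Slc16a1 and Slc39a14 stand apart from their classes.

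Carriers of potassium and chloride showed paralogs on both sides of 0. Slc12a7, which encodes the potassium-chloride cotransporter KCC4, had 1144.5 and 1816 units in wild-type cells and 1084 and 1978 in the knockout, log2 ratios of 0.65 and 0.85. Slc12a2, the sodium-potassium-chloride cotransporter NKCC1, stood at 178.5 and 119 units in wild-type cells and 133 and 112.5 in the knockout, log2 ratios of -0.49 and -0.20, and Slc12a4 (KCC1) had log2 ratios of -0.04 and 0.07. Slc24a6, named Slc8b1 in newer annotation and the sodium-calcium exchanger of mitochondria, stood at 3540.5 and 2726 units in wild-type cells and 3238.5 and 2298 in the knockout. Of the 21 carriers in this class, 6 lay above 0 in wild type and 10 in Ptpn1-/- cells, and Slc12a7 alone was past 1.5-fold with IL-10.

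Amino acid carriers were the class with the largest summed signal, which was not divided by transcript length, and had few differences under IL-10. Slc3a2, the CD98 heavy chain, stood at 12702 and 13788.5 units in wild-type cells and 13640 and 16227 in the knockout. Its partner Slc7a5, which encodes the large neutral amino acid carrier LAT1, stood at 829 and 978 units in wild-type cells and 776.5 and 994 in the knockout. Slc7a11, the cystine-glutamate exchanger xCT, stood at 1020 and 757 units in wild-type cells and 961 and 789 in the knockout, log2 ratios of -0.42 and -0.28. The arginine carrier Slc7a2 stood at 647 and 706.5 units in wild-type cells and 618.5 and 671, close to level. Of the 8 kept targets of the amino acid response, 7 lay above 0 in each genotype with medians of 0.11 and 0.13, Slc7a11 was the exception, and none was past 1.5-fold. The regulator of that response, Atf4, had log2 ratios of 0.17 and 0.21.

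Among the remaining amino acid carriers, Slc43a2, which encodes the neutral amino acid carrier LAT4, had 6901 and 5691 units in wild-type cells and 6348.5 and 4581.5 in the knockout, log2 ratios of -0.28 and -0.47. The glutamine carrier Slc1a5 had 0.09 and 0.12. Slc6a19 was 1.5-fold higher in the knockout alone, at 12.5 and 31 units in wild-type cells and 23 and 59 in the knockout. It passed the filter only through that value of 59 units, which also makes its knockout ratio high. Its signal is close to the filter, so its call follows the settings: with a pseudocount of 0.25 ppm it passed in wild type too, with 4 ppm it passed in neither genotype, and the filter at 5 ppm removed it.

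Sugar carriers stayed near 0. Slc2a1, the glucose importer GLUT1, stood at 2666.5 and 3104 units in wild-type cells and 2844 and 3579 in the knockout, log2 ratios of 0.22 and 0.33. The other glucose carriers Slc2a3 (between 60 and 75 units) and Slc2a6 (between 394 and 443) had wild-type ratios of 0.06 and -0.16. Slc37a2, a sugar-phosphate carrier, stood at 11195.5 and 9768 units in wild-type cells and 10473 and 8837 in the knockout. Slc37a1 stood at 172 and 191.5 units in wild-type cells and 173 and 224 in the knockout. None of the 14 was past 1.5-fold in any comparison. The hypoxia factor gene Hif1a had 3760 and 4577.5 units in wild-type cells and 3836.5 and 5067 in the knockout.

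Carriers of lysosomes and endosomes had medians of -0.06 in both genotypes over 12 genes, with none past 1.5-fold with IL-10. Slc15a3 and Slc15a4 carry histidine and peptides out of endolysosomes. Slc15a3 stood at 19865.5 and 18568.5 units in wild-type cells and 17245 and 18224.5 in the knockout, and Slc15a4 at 1581 and 1429.5 and at 1529 and 1352.5. In the class of peptide and vesicular carriers all 7 lay below 0 in wild type and 6 of 7 in the knockout, with medians of -0.12 and -0.18. The vesicular nucleotide carrier Slc17a9 stood at 165 and 140 units in wild-type cells and 170 and 139 in the knockout. The vesicular monoamine carriers, of which Slc18a2 is also known from mast cells, were low: Slc18a1 between 115 and 143 units and Slc18a2 between 56.5 and 67.5. Mast cell markers, all 6 listed, summed to 330 and 360.5 units in wild-type cells and 481 and 554 in the knockout.

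The 34 mitochondrial carriers spanned IL-10 log2 ratios from -0.19 (Slc25a25) to 0.31 (Slc25a35) in wild type. In the knockout the range was -0.24 (Slc25a42) to 0.34 (Slc25a30). Slc25a30 stood at 582 and 597 units in wild-type cells and 524.5 and 671 in the knockout. The adenine nucleotide exchanger Slc25a5 (5804 and 5898 units in wild-type cells) and the phosphate carrier Slc25a3 (14912 and 14013.5) had wild-type log2 ratios of 0.02 and -0.09. Under mock 27 of the 34 lay above 0 for knockout against wild type with a median of 0.08, where 53.5% of all genes lay above 0. Slc25a20, the carnitine-acylcarnitine carrier, led them at 794.5 units in wild-type cells and 1000 in the knockout. With IL-10 22 of 34 lay above 0, where 51.8% of all genes did, and the median was 0.02. The pyrimidine nucleotide carrier Slc25a33 had the highest ratio there, 0.37, on 55 and 79 units.

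Smaller classes stayed near 0. The phosphate importers Slc20a1 and Slc20a2 had IL-10 log2 ratios of 0.04 and 0.09 in wild type and 0.07 and 0.11 in Ptpn1-/- cells. Slc20a2 had 602.5 and 512 units in wild-type and knockout cells under mock, and 641 and 555 with IL-10. The 5 nucleotide sugar carriers of the Golgi followed here, Slc35a1 to Slc35a5, had IL-10 ratios between -0.13 (Slc35a2) and 0.06 (Slc35a4) in wild type. Slc35a3, which carries UDP-N-acetylglucosamine, stood at 1072 and 1013.5 units in wild-type cells and 1079 and 1183 in the knockout. Slc35a5 stood at 1056 and 1095 and at 1099.5 and 1165.5.

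Across the 175 carriers the IL-10 ratios of the genotypes, which share no column, correlated with Pearson's r 0.86 and Spearman's rho 0.64. Over all 11400 genes these were 0.73 and 0.53. The sign was the same for 130 of the 175 carriers (74.3%) and for 66.8% of all genes. Points share the authors' normalization, and genes are not independent replicates. For the difference between the genotypes' responses no carrier was past 1.5-fold in either direction, where 0.5% of all genes were higher and 0.263% lower. At 2-fold the shares of all genes were 0.0965% and 0.0351%. The lowest carrier was the low-signal zinc importer Slc39a2 at -0.51, listed between 24 and 43.5 units. It passed the filter only through its knockout mock value of 43.5 units, which also makes this difference low, so its place is not a finding. Beside Slc39a14, Slc30a4 (0.45), Slc28a2 (0.38) and Slc16a1 (0.34) were the highest among carriers with at least 134 units in their highest group. Slc19a1, the reduced folate carrier, and Slc9a4, a sodium-proton exchanger, were the lowest in that range, at -0.33 and -0.32.

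**Figure D3:**
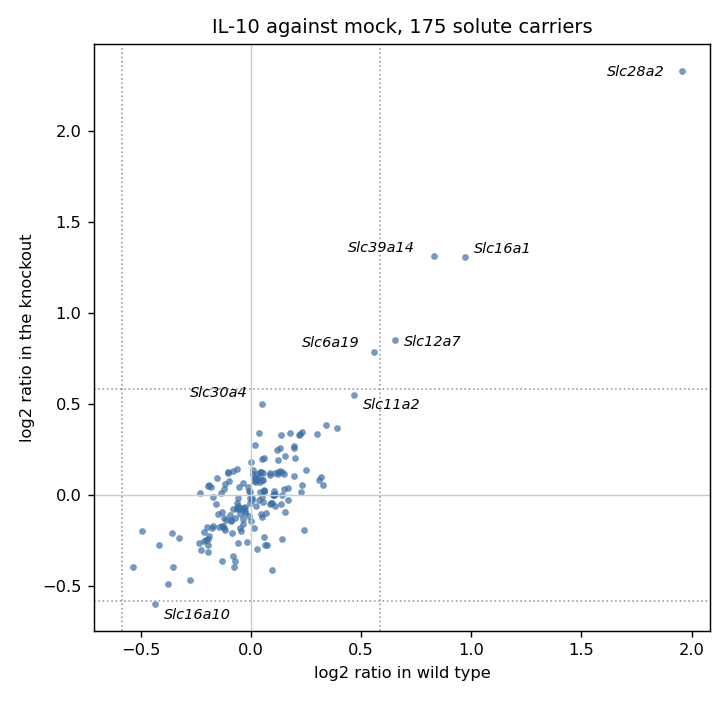
Log2 ratio of IL-10 to mock in wild type (x axis) and in the knockout (y axis), 1 point per carrier; dotted lines are 1.5-fold limits. Slc28a2, Slc16a1, Slc39a14 and Slc12a7 pass the limit upward in both genotypes, and all 4 have the larger ratio in the knockout.

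Between genotypes, the organic anion carrier Slco2b1 had the lowest knockout-to-wild-type log2 ratio of the carriers under both treatments with 26.7 units added. Without that addition the low-signal Slc22a17 was lower under mock, and Slc22a23 and Slc22a17 were lower with IL-10. Its row lies on mm9 chromosome 7, 106838990 to 106844092, minus strand. It was listed at 702 units in wild-type cells and 405.5 in the knockout under mock, and at 679.5 and 384 with IL-10, log2 ratios of -0.75 and -0.78. These ranked 42nd lowest and 28th lowest of the 11400 genes. The taurine importer Slc6a6 had 19070.5 and 12683 units under mock and 17383 and 12799.5 with IL-10, log2 ratios of -0.59 and -0.44. Slc22a17, a receptor for lipocalin-2, was low, at 45 and 18 units under mock and 36 and 19.5 with IL-10. It passed the filter only through its wild-type mock value of 45 units, which also makes its mock ratio low. Under mock these 3 carriers were at least 1.5-fold lower (1.71%, where 1.4% of all genes were), and with IL-10 Slco2b1 alone was (0.571%, against 0.991%).

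Values were also lower in the knockout for other organic anion and amino acid carriers that did not reach 1.5-fold. The prostaglandin carrier Slco2a1 stood at 99 and 76.5 units under mock and 130 and 84 with IL-10, and Slco3a1 at 351.5 and 258.5 and at 313 and 277.5. The remaining kept Slco gene, Slco4a1, was higher in the knockout, at 57.5 and 77 units under mock and 57 and 78.5 with IL-10. The proton-coupled amino acid carriers Slc36a1 and Slc36a4 had log2 ratios of -0.40 and -0.32 under mock and -0.38 and -0.36 with IL-10. Slc36a1, of lysosomes, stood at 3251.5 and 2456 units under mock. The glycine carrier Slc6a9 stood at 192 and 140 units with IL-10, a log2 ratio of -0.39. Of 27 amino acid carriers 20 lay below 0 under mock, and their median was -0.10, which became 0.00606 after subtraction of the trend across transcript length. With IL-10, 19 lay below 0, and their median of -0.07 became -0.05 after that subtraction. The sugar carrier Slc45a4 had 792 and 628 units under mock, and the inositol carrier Slc5a3 had 74.5 and 54. Slc22a23 was low, at 42 and 22 units with IL-10. The creatine carrier Slc6a8 had log2 ratios of -0.17 and -0.18.

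Beside these values stood a trend over transcript length and the level of other cell types' markers. Across all genes, knockout ratios were lower for longer transcripts under mock (Spearman's rho -0.53 over 11222 genes with a length, and -0.40 over 174 carriers). With that trend subtracted Slco2b1 kept log2 ratios of -0.70 and -0.75, and Slc6a6 had -0.44 and -0.35, below 1.5-fold. The mesothelial and fibroblast markers had a median log2 ratio of -0.61 under mock and -0.59 with IL-10, 0 of 8 lay above 0, and Col3a1 had 4587 and 1962.5 units under mock. Their part in the carriers' values was not tested.

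Higher in the knockout under mock by at least 1.5-fold were Slc28a2, described above, and Slc22a18, at 79.5 and 139.5 units (1.14% of carriers, where 1.43% of all genes were). With IL-10 they were Slc28a2 and the riboflavin carrier Slc52a3 (1.14%, against 1.8%), the last at 25 and 52 units, near the filter. Slc52a3 passed the filter only through that value of 52 units, which also makes its ratio high. Slc22a18 stood at 98 and 146 units with IL-10, a log2 ratio of 0.47. Slc9a4 had 209 and 311 units under mock (0.52) and 197 and 229.5 with IL-10 (0.20). The fatty acid carrier Slc27a6 stood at 66.5 and 85 units under mock and 62 and 60 with IL-10. No carrier was 2-fold different between genotypes in either direction; of all genes 0.325% were higher and 0.105% lower under mock, and 0.596% and 0.0789% with IL-10. The monocyte markers Ccr2 and Ly6c2 had genotype log2 ratios of 0.61 and 1.60 under mock and 0.62 and 1.72 with IL-10, and the part of those cells in these values was not tested.

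**Figure D4:**
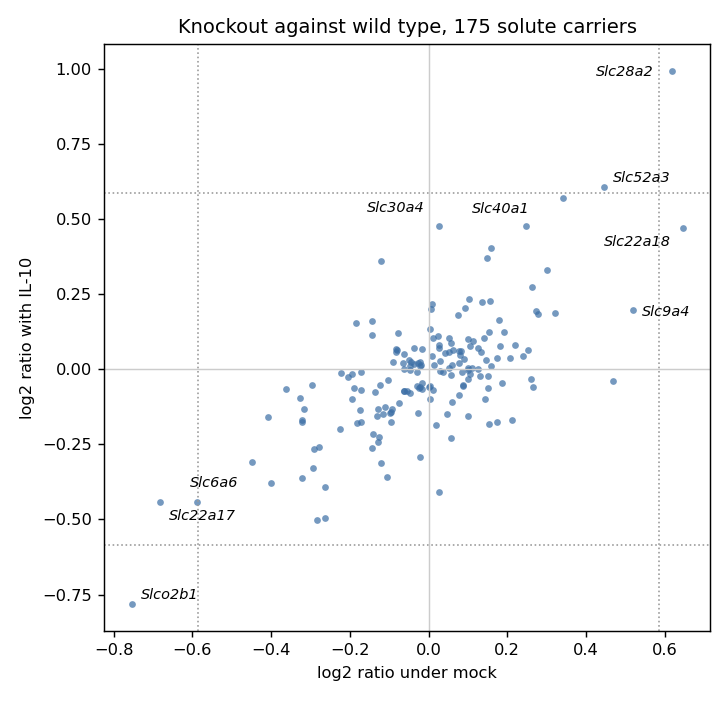
Log2 ratio of knockout to wild type under mock (x axis) and with IL-10 (y axis), 1 point per carrier; dotted lines are 1.5-fold limits. Slc28a2 is past the limit upward and Slco2b1 downward under both treatments.

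Genotype ratios under mock and with IL-10, which share no column, correlated with Pearson's r 0.69 and Spearman's rho 0.59 over the 175 carriers, and 0.73 and 0.68 over all genes. The labels do not say whether a mouse gave cells to both treatments.

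By level, compared per kilobase of each gene's longest GENCODE M21 transcript, Slc11a1 led the carriers with a mean of 8170 units per kilobase over the 4 groups. Slc3a2 followed with 5009, Slc25a5 with 4672, Slc15a3 with 3795, Slc25a3 with 3618 and Slc48a1 with 3354. The order rests on the deposited signal not being corrected for length, which the sources used here do not state. Of the 36-base stretches of Slc25a5 62.4% occur in other genes, so its level is uncertain. The rows of Slc15a3, Slc48a1 and Slc30a1 overlap those of Tmem132a, Hdac7 and 1700034H15Rik, and reads of such pairs may not be told apart. As a whole the 175 carriers took 1.17% of the signal of the wild-type mock column and between 1.12 and 1.16% of the others.

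Some classes were listed more fully than others. These counts match genes by identifier and newer symbol, so a class can hold other genes than the classes by listed name, as for the 34 mitochondrial carriers above. In GENCODE M21, 348 protein-coding genes have an Slc symbol of subfamily a or an Slco symbol. Other Slc subfamilies were not counted. Of the 348, 50.3% were kept by identifier, the same share as of all protein-coding genes (50.3%). All 5 of the nucleotide sugar genes counted (Slc35a1 to Slc35a5) were kept, as were 26 of 32 metal genes (81.3%) and 36 of 47 mitochondrial genes (76.6%). Of genes of organic ions and lipids, 17 of 55 (30.9%) were. Genes not listed include Slc2a4, the insulin-responsive glucose carrier, and Slc1a2, a glutamate carrier of glia.

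Other transporters were read for comparison. Of all genes, 1.54% in wild type and 2.32% in the knockout were at least 1.5-fold higher with IL-10, and 0.412% and 0.807% lower. These shares stand beside each count given here, and lists this short would hold few such genes at those shares. Of 31 kept ABC transporters none was 1.5-fold higher with IL-10, and 1 was 1.5-fold lower in the knockout: Abcd2, a peroxisomal carrier of fatty acids, at 545.5 and 273 units, and at 580 and 380.5 in wild type. The cholesterol exporter Abca1 stood at 6542 and 4674.5 units in wild-type cells and knockout under mock. Of 2 kept aquaporins, Aqp9, a channel for water and glycerol, was at 46 and 76 units in wild-type cells and 44 and 131.5 in the knockout. Its IL-10 log2 ratios were 0.50 and 1.16, past 1.5-fold in the knockout alone. The difference between these responses, 0.66, was past 1.5-fold too, where 0.5% of all genes were. Aqp5 had IL-10 log2 ratios of 0.20 and 0.09. For knockout against wild type with IL-10, Aqp9 had 0.62 and Aqp5 -0.62. None of 16 kept atypical carriers was past 1.5-fold in either response, and of 24 kept partners and regulators the 2 that were higher in both genotypes were Mt1 and Mt2. The phosphate exporter Xpr1, at 4413.5 and 3256 units in wild-type cells, had the lowest wild-type ratio of the atypical carriers, -0.44.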

How the data were processed

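RNA of 8 samples in 4 groups of 2 was sequenced. RSEM, Bowtie and mm9 are named in the submitters' processing notes, and their roles and versions, the annotation and the normalization were not given in the sources used here. Per group, the authors deposited 1 normalized expression signal for each of 11996 genes. The table is named for CPM, yet each column sums to 26705598 and all values are multiples of 0.5, so 1 ppm is 26.7 units. Depth per library is unknown, and no interval or floor is given.

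The members, classes and gene lists were chosen with earlier results of these data known. Genes with a mean of at least 1 ppm over the 4 groups were kept (11400), 1 ppm was added before log2 ratios, and 5 comparisons were computed. No test was run, because no value per sample was analysed. Class medians and counts past 1.5-fold stand beside those over all kept genes. Genes were named by size within each comparison and class (4 per direction and comparison among those of at least 5 ppm in the higher of the groups compared, 2 per class), by level (6 by mean signal, 6 per kilobase), and from a list of macrophage carriers; Slc23a2, Slc29a1, Slc2a3, Slc31a1, Slc31a2, Slc36a4, Slc39a1, Slc41a1, Slc41a2, Slc12a4, Slc25a25, Slc25a42, Slc35a4, Slc39a2, Slco2a1, Slco4a1 and the non-carriers Bsg, Emb, Mt1, Mt2, Atf4, Hif1a, Abca1, Abcd2, Aqp9 and Xpr1 were chosen after their values were seen. Coordinates are those of the table (mm9) and may not span whole genes. Lengths come from GENCODE M21 and promoters from RefSeq (GRCm38.p6); no position was converted. Computation used Python 3.11.15, pandas 2.3.3 and statsmodels 0.14.6 (lowess over transcript length), checked on simulated data with planted changes. Some genes that the naming rule took are not reported here.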

Additional observations from a re-analysis of the deposited data

How the results depend on the processing

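The 6 alternatives were a pseudocount of 0.25 or 4 ppm, a filter at 5 ppm or none, centring on the median of all kept genes, and subtraction of the trend over transcript length. Slc28a2, Slc16a1, Slc39a14 and Slc12a7 were at least 1.5-fold higher with IL-10 in both genotypes under all 6, and Slco2b1 at least 1.5-fold lower in the knockout under both treatments. A change of filter leaves the ratios of these genes as they are, and centring shifted ratios by at most 0.02. Those settings could thus hardly alter these calls, and only the pseudocounts and the length trend put them to a check. No named gene past 1.5-fold changed sign. Shares of all genes at these settings are not given here, so the counts below show only how calls depend on settings. With 0.25 ppm, 2 carriers were 1.5-fold lower with IL-10 in the knockout, and 2 had a lower response there. Against wild type, 5 were higher in the knockout under mock and 5 lower with IL-10. With 4 ppm those counts were 0 lower with IL-10 in the knockout, 0 higher and 1 lower under mock, and 1 higher with IL-10. The 2 with a lower response at 0.25 ppm were Slc39a2 and Slc39a4, with mean signals of 30.25 and 29.25 units. Each passed the filter only through its highest value (43.5 and 38 units), which also makes its response difference low. With the filter at 5 ppm, 1 was higher in the knockout under mock and 1 with IL-10, and the median of the 4 remaining nucleoside and ascorbate carriers became -0.0344 in wild type and -0.0393 in the knockout because Slc29a2 is left out. With the length trend subtracted, 0 were lower with IL-10 in the knockout (Slc16a10 moved to -0.58), 1 was higher under mock, and the mock genotype medians of amino acid and of nucleoside and ascorbate carriers became 0.00606 and 0.17. Under mock, Slc28a2 was below 1.5-fold with 4 ppm, and Slc22a18 and Slc6a6 both with 4 ppm and with the trend subtracted. With IL-10, Slc52a3 was below it under the same pair of settings. Slc22a17 was below it under mock with 4 ppm, and Slc22a17, Slc22a18 and Slc52a3 were removed by the filter at 5 ppm. Shifts of the other class medians and counts stayed below 0.1 for medians or within 1.5 times for counts. No paired analysis was possible because the deposited columns hold 1 value per group and carry no replicate numbers, and for the same reason no replicate was left out. The depth behind each value is unknown, and low genes such as Slc6a19, Slc52a3 and Slc22a17 depend most on the pseudocount.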
